A study of Sus scrofa with 8 samples.

Results

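The genes described here are those of the pig mitochondrial genome together with the nuclear genes that encode proteins of the mitochondrial ribosome. They were chosen as the rows of a table of heart RNA whose locus lies on the mitochondrial chromosome (MT), or whose symbol starts with MRPL or MRPS, the prefixes for proteins of the large and the small subunit. This gives 89 of the 18975 genes listed, 27 from MT and 62 with an MRPL or MRPS symbol. The rule used position and name only, and no measured value. The 27 MT genes are 13 mRNAs, 2 rRNAs and 12 tRNA rows, and the 62 nuclear genes are 39 MRPL and 23 MRPS genes. The symbols do not follow the subunit in every case, as the proteins of MRPS18A and MRPS30 are known to lie in the large subunit. Another 6 rows that the table leaves without a symbol carry an MRPL or MRPS symbol in the reference table of pig genes, and they were not counted as members.

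RNA was sequenced from the heart of male pigs slaughtered at an age of 6 months. The 4 groups were Tibetan pigs kept at 3000 m in Linzhi (TH), Tibetan pigs kept at 100 m in Beijing (TL), and Yorkshire pigs kept at the same highland (YH) and lowland (YL) sites. No other treatment or allele is given for any group. Each group had 2 libraries, and each library was a pool of RNA from 4 pigs, so the spread within a group, and with it every p-value here, is that between pools, and the animals within a pool cannot be told apart. The descriptions attached to YL1 and YL2 point to a file of TL, against their titles and breed, and both were taken as YL from title, breed and column name.

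Mitochondria keep a small circular genome whose mRNAs encode core subunits of the respiratory chain and of ATP synthase, the complexes that supply most of the ATP of a beating heart. The same genome encodes the rRNAs and tRNAs of a separate ribosome, while every protein of that ribosome is encoded in the nucleus, made in the cytosol and imported. Mitochondrial RNA is transcribed as long precursors from both strands and cut into single RNAs, so that the levels of its mRNAs depend on cutting and decay as well as on transcription, whereas each MRPL and MRPS gene has its own promoter.

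Levels are given as FPKM, that is, sequenced fragments divided by transcript length in kilobases and by the mapped fragments of the library in units of 1000000. Where the values of all 8 libraries are given, the first of each pair belongs to library 1 of the group and the second to library 2. Differences are log2 fold changes of FPKM + 1 (first group minus second), and understate the change of genes near 0. A gene was tested if it reached 1 FPKM in 2 libraries, which kept 11913 of all genes and 83 of the 89 members (13 mRNAs, 2 rRNAs, 7 tRNA rows and 61 MRPL and MRPS genes). It was called at a limma p-value under 0.01, adjusted over all genes tested, with a log2 fold change over 1 in size. Reads on genes, recovered from the scaled counts in the same table, lay between 15687000 in TH2 and 26723000 in TH1, rounded.

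Heart muscle markers were present throughout, with 10 of 11 cardiomyocyte marker rows at 1 FPKM or more in every library, but library YL2 stood apart. The summed FPKM of 19 kidney tubule marker rows (2 of them at 1 FPKM or more in every library) was 5698 in YL2 and 16.6 to 47.3 in the other 7 libraries. In FPKM as listed, with no rescaling of the marker sums, the sum of the cardiomyocyte rows was lowest in YL2 (17413) and highest in TH1 (52100). TH1 also had the highest sum of 5 blood and red cell rows (3100, against 531 in YL2) and the lowest of 8 fibroblast rows (194, against 225 to 805 in the others). Its sum of 5 skeletal muscle rows was highest as well (31305, against 7060 in YL2), with 2 of them at 1 FPKM or more in every library. As no library had a sum under 7060, it is not read as a sign of skeletal muscle tissue. Because the tissue was sequenced in bulk, fewer heart muscle cells, less RNA per cell and RNA of another tissue in the pool cannot be told apart. Medians over the members are therefore given with and without YL2 and TH1, and so are the values of single genes that these libraries move most.

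The 13 mitochondrial mRNAs were among the most abundant transcripts of every library, and together took 20.8% (YL2) to 38.0% (YL1) of all reads on genes. With rRNAs and tRNAs, MT genes took 26.6% in YL2 and 47.8% in TH1, with a median of 36.1% over the 8 libraries. The mRNA of highest FPKM was ATP6 (ENSSSCG00000018081, chrMT:8959-10583, Sscrofa10.2), the proton channel subunit of ATP synthase, at 127856 ± 52421 FPKM (mean ± SD, n = 8). Its FPKM was 227192 and 100537 for TH, 117786 and 112142 for TL, 127920 and 94373 for YH, and 180907 and 61994 for YL. ATP6 ranked first of the 13 in all 8 libraries, and TH1 and YL1 held its highest levels.

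ATP8, the other ATP synthase subunit encoded here, averaged 96469.5 ± 50992 FPKM (mean ± SD, n = 8) and is taken up below. The subunits that form the catalytic core of cytochrome c oxidase followed at similar levels. COX1 (ENSSSCG00000018075, chrMT:6511-8055) had an FPKM of 114882 and 69145 for TH, 76464 and 85798.5 for TL, 96574 and 71886 for YH, and 117928 and 41607 for YL. COX2 (chrMT:8203-8890) averaged 84134 ± 34148 FPKM (mean ± SD, n = 8) and COX3 averaged 77152 ± 25991 FPKM (mean ± SD, n = 8). The ratio of COX2 to COX1 stayed between 0.771 in YH2 and 1.25 in TH1, and COX1 was above COX2 in 4 of 8 libraries, so these neighbours in the order of levels did not differ beyond their spread. COX3 lay above the next gene, ND3, in all 8 libraries.

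The remaining mRNAs were lower. CYTB, the cytochrome b of complex III, averaged 32896 ± 11650.3 FPKM (mean ± SD, n = 8). Among the complex I subunits, ND3 averaged 39059 ± 22891 FPKM (mean ± SD, n = 8), ND4L 29175 ± 12249.9 FPKM (mean ± SD, n = 8), ND4 28819 ± 11925 FPKM (mean ± SD, n = 8), ND6 24015 ± 11308 FPKM (mean ± SD, n = 8), ND1 22226 ± 8802 FPKM (mean ± SD, n = 8) and ND2 16395 ± 6857 FPKM (mean ± SD, n = 8). ND5 (ENSSSCG00000018091, chrMT:12935-15266) was lowest, with an FPKM of 20369 and 13664 for TH, 10085 and 10405 for TL, 12757.5 and 9898 for YH, and 19536 and 5118 for YL. It ranked last of the 13 in all 8 libraries, and mean levels spanned from 12729 FPKM for ND5 to 127856 FPKM for ATP6.

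**Figure D1:**
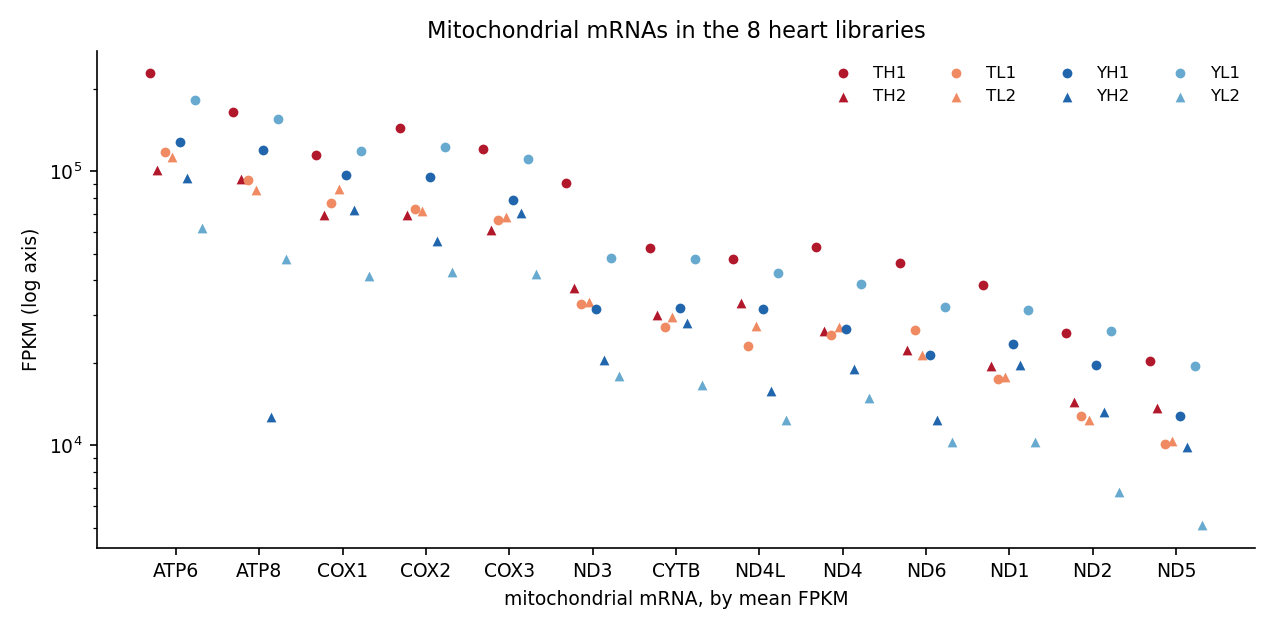
FPKM (log axis) of the 13 mitochondrial mRNAs, ordered by mean, with 1 point for each of the 8 libraries (circles for the first library of a group, triangles for the second, colours for groups). TH1 and YL1 lie at the top and YL2 at the bottom of nearly every column, and ATP8 in YH2 lies far below its other libraries at 12727 FPKM.

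The order of the mRNAs depended on the length correction. By reads in place of FPKM, COX1 was first with a mean of 85130 reads per 1000000 reads on genes, ahead of ATP6 with 42497, and ATP8 was last with 1726. ATP8 is the shortest open reading frame and overlaps the start of ATP6, and the table gives ATP8, ATP6 and COX3 1 shared locus of 1625 bases. ND4L shares a locus with ND4, and ND5 with ND6, which is encoded on the opposite strand. Reads in such overlaps can be divided between genes in more than 1 way, and the sources used here do not say that strand was kept, so ND6 and antisense reads of its locus cannot be told apart.

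Ratios within 1 library do not depend on how that library was scaled. The ratio of ATP8 to ATP6 was 0.726 to 0.935 in 7 libraries and 0.135 in YH2. In reads, ATP8 had 56784 and 24541 for TH, 33516 and 34974 for TL, 44094 and 3771 for YH, and 53225 and 31177 for YL. YH2 alone was low, at 3771 reads, while its ATP6 had 637696 reads, close to the 637334 of YL2. The other YH library had an ATP8 to ATP6 ratio of 0.932, so the low value belonged to 1 library and not to the group.

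The other overlapping pairs moved less. ND4L relative to ND4 lay between 0.827 (YH2) and 1.27 (TH2), and ND6 relative to ND5 between 1.26 (YH2) and 2.61 (TL1). ND3, a short gene, relative to COX3 just before it was 0.755 and 0.614 for TH, 0.494 in both TL libraries, 0.400 and 0.290 for YH, and 0.436 and 0.426 for YL. Both TH libraries were above all others and both TL libraries above all YH and YL libraries.

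**Figure D2:**
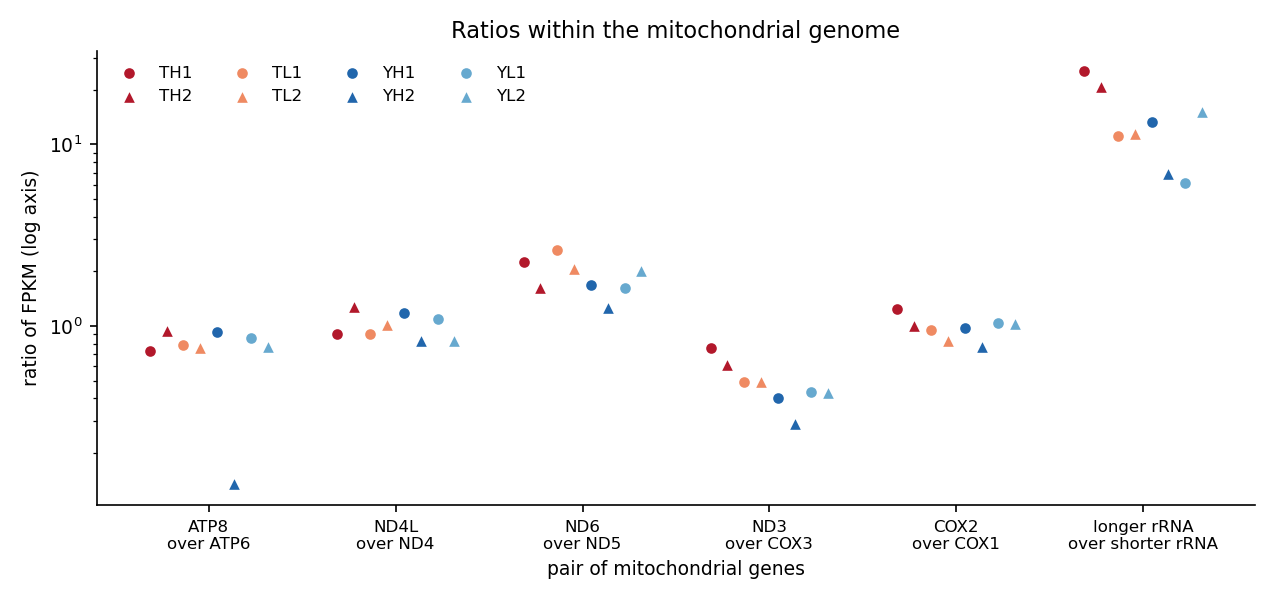
Ratio of FPKM (log axis) for 6 pairs of mitochondrial genes, with 1 point for each of the 8 libraries (circles and triangles for the first and second library, colours for groups). ATP8 over ATP6 is 0.135 in YH2 and at least 0.726 elsewhere, and the ratio of the rRNAs spans 6.14 to 25.2.

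The rRNAs are the RNA core of the mitochondrial ribosome. The longer rRNA, of the large subunit (ENSSSCG00000018063, chrMT:2274-3844), had an FPKM of 103044 and 34272 for TH, 39218 and 55771.5 for TL, 41747 and 21825.5 for YH, and 58460.3 and 30704 for YL. TH1 was highest and YH2 lowest, and the TH and YH libraries overlapped. The shorter rRNA, of the small subunit (ENSSSCG00000018061, chrMT:1246-2205), had an FPKM of 4086 and 1654 for TH, 3531 and 4915 for TL, 3138 and 3165 for YH, and 9525 and 2025 for YL. Here YL1 was highest and TH2 lowest. A ribosome holds a single copy of both, and the ratio of the longer to the shorter was 25.2 and 20.7 for TH, 11.1 and 11.3 for TL, 13.3 and 6.90 for YH, and 6.14 and 15.2 for YL. Both TH libraries were above the other 6. How rRNA was handled during library preparation is not given in the sources used here, so neither rRNA level is read as an amount of ribosome. The rRNAs took 2.60% (YH2) to 11.2% (TH1) of reads on genes.

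The tRNA rows hold almost no reads, as all 12 together had 27 (YH2) to 175 (TH1) reads. For 3 of the 12 rows, those described next, the mean FPKM was nonetheless above that of ATP6. Division by length alone does not give values of this size, and how they arose was not tested. The row at chrMT:8059-8129 is listed at 2600000 FPKM in TH1 from 87 reads, where COX1 has 114882 FPKM from 2381798 reads. The row at chrMT:8891-8957 had read numbers of 76 and 39 for TH, 38 and 27 for TL, 33 and 3 for YH, and 23 and 22 for YL, and those of the row at chrMT:16550-16613 were 6 and 3 for TH, 5 and 6 for TL, 6 and 0 for YH, and 2 and 7 for YL. YH2 was lowest in both. tRNA rows made up 34.7% (YH2) to 73.0% (TH1) of the FPKM sum of a library. No level of a tRNA is therefore read from these values, and they were tested only because they are members.

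The 62 MRPL and MRPS genes are spread over the nuclear genome, with 58 on 18 chromosomes (at most 7 on any) and 4 on unplaced scaffolds. Mean levels of the 61 tested had a median of 30.3 FPKM. Of these, 52 lay between 10 and 100 FPKM, 3 above 100 and 6 below 10. Split by symbol, the 38 MRPL genes had a median mean level of 29.2 FPKM and the 23 MRPS genes 30.3 FPKM. The 35 proteins numbered after a bacterial counterpart and the 26 tested with a number used only for mitochondrial proteins had median levels of 30.3 and 29.2 FPKM. No test of these levels was made.

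A few genes stood outside this band. MRPS6 (ENSSSCG00000026981, chr13:207569045-207586377), a small subunit protein, was highest with 169 ± 41.8 FPKM (mean ± SD, n = 8). Its FPKM was 183 and 114 for TH, 241 and 174 for TL, 171 and 163 for YH, and 195 and 113 for YL. TL1 was highest, and no pair of groups compared was separate. MRPS25 averaged 158 ± 38.1 FPKM (mean ± SD, n = 8), MRPL28 averaged 130.4 ± 28.3 FPKM (mean ± SD, n = 8) and MRPS15 ranged from 64.1 FPKM in TH2 to 118 FPKM in YL1.

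At the low end, MRPL51 and MRPL33 were listed with short loci of 392 and 201 bases and almost no reads. MRPL51 had 2 reads in TL1 and none elsewhere, and did not pass the filter. MRPL33 had 1 read in TL1, 2 in TL2, 1 in YL2 and none in the other libraries. Nothing is read from either row. MRPL19, the next lowest, averaged 6.14 ± 1.16 FPKM (mean ± SD, n = 8). For MRPS18A, MRPL22, MRPL45 and MRPL55, 1 of the 6 unnamed rows carries the same symbol in the reference table, so reads of these genes may be divided between 2 rows.

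MRPL and MRPS genes varied less between libraries than the mitochondrial mRNAs. Their median coefficient of variation over the 8 libraries was 20.9%, against 41.0% for the 13 mRNAs, 30.8% for all genes tested and 26.6% for the 1585 genes whose mean level lay between the quartiles of the MRPL and MRPS genes. Looking at the extremes after their values were seen, the steadiest was MRPS31, with a coefficient of variation of 7.67% and a range of 20.4 FPKM in TH2 to 24.5 FPKM in TH1. MRPL50 followed with 8.55%. MRPL20 varied most among genes above 10 FPKM, with 49.4%, followed by MRPL17 with 43.6%. All 13 mRNAs, and 22 of the 60 MRPL and MRPS genes other than MRPL33, differed more than 2-fold between their highest and lowest library. For MRPL33, at 0 in 5 libraries, no such ratio was formed.

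TH1 was the library with the highest FPKM for 42 of the 61 MRPL and MRPS genes (68.9%), compared with 2974 of the 11913 genes tested. It was also highest for 11 of the 13 mitochondrial mRNAs. YL2 was lowest for 28 of the 61 (45.9%, against 22.5% of all genes) and for 12 of the 13 mRNAs. Within the TH group, TH1 exceeded TH2 for 13 of 13 mRNAs and for 55 of 61 MRPL and MRPS genes, by a median of 1.97-fold and 1.46-fold. Over all genes tested the same median was 1.01-fold. Within YL, YL1 exceeded YL2 for 13 of 13 mRNAs by a median of 2.92-fold, and for 50 of 61 MRPL and MRPS genes by a median of 1.23-fold. Within YH, YH1 exceeded YH2 for 13 of 13 mRNAs by a median of 1.39-fold, and for 33 of 61 MRPL and MRPS genes with a median difference of 0.02 on the log2 scale. Within TL the median of library 1 minus library 2 was -0.03 on the log2 scale in both sets.

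**Figure D3:**
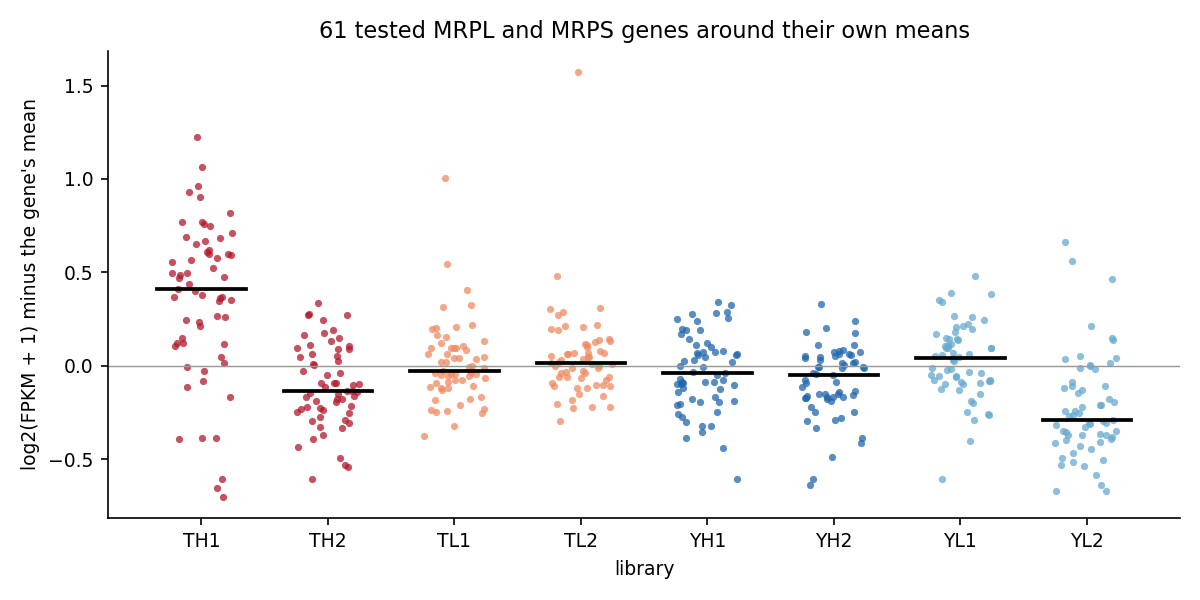
Log2(FPKM + 1) of each of the 61 tested MRPL and MRPS genes minus that gene's mean over the 8 libraries, by library (points for genes, black bars for medians). The median lies at 0.41 in TH1 and -0.29 in YL2, and between -0.13 and 0.04 in the other libraries.

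These library differences depended in part on scaling. The FPKM of the table carry a factor for each library, and reads per FPKM relative to TH1 lay between 0.894 (YL1) and 1.58 (YL2). When libraries were scaled to reads on nuclear genes, TH1 was highest for 24 of the 61 MRPL and MRPS genes (39.3%, against 10.8% of all genes) and for 5 of the 13 mRNAs, and YL1 was highest for the other 8 mRNAs. YL2 was then lowest for 15 of the 61 (24.6%, against 14.2%) and 11 of the 13 mRNAs, and with median-ratio scaling for 11 of the 61 (18.0%, against 12.4%) and 11 of the 13. As a share of nuclear reads, which needs no such factor, MRPL and MRPS genes took 0.400% (TH2) to 0.480% (TH1). Genes of nuclear subunits of oxidative phosphorylation showed the same order in FPKM, with TH1 highest for 47 of 75 and YL2 lowest for 58 of 75, and TH1 was highest for 73 of 80 cytosolic ribosome genes. With scaling to nuclear reads TH1 was highest for 22 of the 75 and YL2 lowest for 50, and TH1 was highest for 67 of the 80. Kidney tubule markers in YL2 and heart, skeletal muscle, blood and fibroblast markers in TH1 moved with these libraries as given above, and their part in the levels was not tested. Transcript length, taken as reads per FPKM in the 60 MRPL and MRPS genes with at least 30 reads in every library, was set against the level in TH1. The level in TH1 minus the mean of the other 7 libraries had a median of 0.62 on the log2 scale for the 30 shorter genes and 0.35 for the 30 longer ones, and across these genes its correlation with length was 0.03 (Pearson) and -0.13 (Spearman). When cut at the same length, the medians in TH1 were 0.69 for shorter and 0.15 for longer oxidative phosphorylation genes, and 0.17 and 0.04 over 9233 genes of all kinds. For the cytosolic ribosome genes they went the other way, at 1.09 and 1.18. Pearson correlations with length were -0.48, -0.07 and -0.10 for these lists in the order given. In YL2 the medians were -0.35 and -0.30 for the MRPL and MRPS genes. The part of length in these levels was not tested.

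The level of the mitochondrial mRNAs relative to the genes of their ribosome was taken as the median log2(FPKM + 1) of the 13 mRNAs minus that of the 61 MRPL and MRPS genes. The mRNA median was 15.69 and 15.01 for TH, 14.73 and 14.84 for TL, 14.94 and 14.27 for YH, and 15.55 and 14.02 for YL. The ribosome median was 5.48 and 4.86 for TH, 4.96 and 4.98 for TL, 4.71 and 4.79 for YH, and 4.91 and 4.73 for YL. TH1 was highest in both, and the mRNA medians spread more widely than those of the ribosome.

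The difference was 10.21 and 10.15 for TH, 9.76 and 9.86 for TL, 10.23 and 9.47 for YH, and 10.64 and 9.29 for YL. It corresponds to a median mRNA at 626 (YL2) to 1598 (YL1) times the level, in FPKM + 1, of a median MRPL or MRPS transcript. The TH and TL libraries lay close together within their groups, with gaps of 0.06 and 0.10. The YH and YL libraries were 0.76 and 1.35 apart. Group means were 10.18 for TH, 9.81 for TL, 9.85 for YH and 9.97 for YL.

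TH lay above TL by 0.37, and the groups did not overlap. TH lay above YH by 0.33, TL minus YL was -0.16 and YH minus YL -0.11, and in these 3 comparisons the groups overlapped. Without TH1 the difference of TH to TL was 0.34, while that of TH to YH was 0.71 without YH1 and -0.06 without YH2, that of TL to YL -0.83 without YL2 and 0.52 without YL1, and that of YH to YL -0.79 and 0.56 without the same libraries. An exact permutation test of 2 against 2 libraries cannot give a two-sided p below 0.333, and no other test of these differences was made. By reads, which do not use lengths, 1 MRPL or MRPS read stood beside 69.4 (YL2) to 156 (YL1) mRNA reads.

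**Figure D4:**
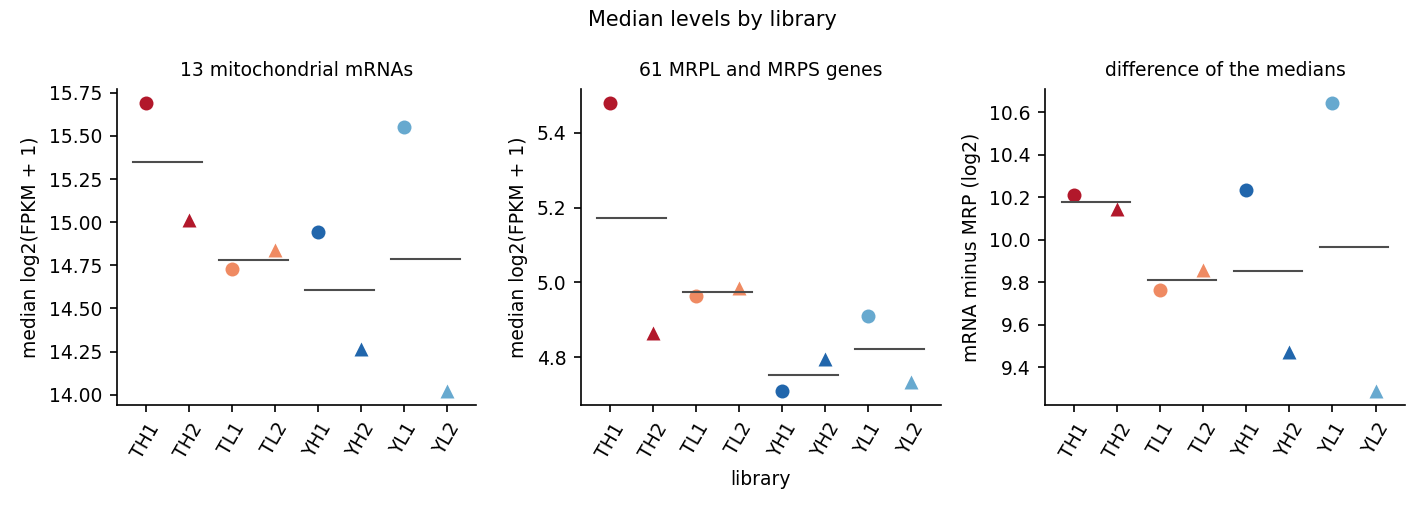
Median log2(FPKM + 1) of the 13 mitochondrial mRNAs (left) and of the 61 MRPL and MRPS genes (middle), and the difference of these medians (right), by library, with grey lines at group means. The lowest and highest differences, 9.29 and 10.64, are both YL libraries.

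Relative to the nuclear genes of oxidative phosphorylation, the TH libraries also lay together. The mRNA median exceeded that of 75 such genes by 6.69 and 6.88 for TH, 6.32 and 6.40 for TL, 6.63 and 6.04 for YH, and 6.98 and 6.11 for YL. Both TH libraries were above both TL and both YH libraries. The median of the nuclear oxidative phosphorylation genes exceeded that of the MRPL and MRPS genes by between 3.18 (YL2) and 3.66 (YL1).

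The comparison of TH to YH asks how the breeds differ at high altitude. None of the 83 members was called by limma, where 0.0336% of all genes tested were (4 genes), and the lowest adjusted p of a member was 0.188. All 13 mitochondrial mRNAs had a positive log2 fold change, with a median of 0.46 against -0.03 for all genes, and of 0.26 when libraries were scaled to nuclear reads but -0.53 when scaled to the FPKM sum, of which the tRNA rows are 34.7% to 73.0%. Those scalings move the median of all genes to -0.18 and -0.50. Before the pseudocount, scaling to nuclear reads adds -0.20 to every log2 fold change from TH to YH and -0.21 from TH to TL, and scaling to the FPKM sum adds -0.99 and -0.64, so positive values smaller than these turn negative there. The groups did not overlap for 4 of the 13 (30.8%), all higher in TH, where 25.2% of all genes were higher and 27.3% lower without overlap. These were ND3, ND4L, ND5 and ND6, of which ND5 and ND6 share a locus.

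ND3 had an FPKM of 90628 and 37418 for TH, 32767 and 33448 for TL, 31526 and 20467 for YH, and 48299 and 17916 for YL. Both TH libraries were above both YH libraries, but TH2 and YH1 were close while TH1 was far above all others. Its log2 fold change was 1.20 (SE 0.75, limma adjusted p = 0.467), and 0.56 without TH1. That of ND6 was 0.97 (SE 0.74, limma adjusted p = 0.539), 0.45 without TH1 and 0.58 without YH2. ATP8 had 1.68 (SE 1.19, limma adjusted p = 0.511), and 0.06 without YH2. COX1 had the smallest value of the 13, 0.10 (SE 0.78, limma adjusted p = 0.963), -0.27 without TH1 and -0.12 without YH2. No mRNA reached an unadjusted p under 0.05. Without TH1, 7 of the 13 were positive and their median was 0.01.

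Of the 61 MRPL and MRPS genes, 40 had a positive and 20 a negative value from TH to YH, with a median of 0.20, but of 0.00 with scaling to nuclear reads and -0.69 with scaling to the FPKM sum. Groups did not overlap for 22 that were higher in TH (36.1%, against the 25.2% of all genes) and for 8 that were lower (13.1%, against 27.3%). At an unadjusted p under 0.05, 6 were higher (9.84%, against 7.71% of all genes), namely MRPS14, MRPS34, MRPL17, MRPS18A, MRPL20 and MRPL52, and 2 lower (3.28%, against 8.47%), MRPL3 and MRPS35. Split by symbol, the 38 MRPL genes had a median of 0.18 and the 23 MRPS genes 0.32. Without TH1 the median was -0.06 with 26 of 61 positive, and without TH2 it was 0.47.

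MRPS14 (ENSSSCG00000015503, chr9:128703421-128715554), a small subunit protein with a bacterial counterpart, had the lowest p. Its FPKM was 50.9 and 35.7 for TH, 26.97 and 29.1 for TL, 23.4 and 24.6 for YH, and 26.4 and 25.6 for YL. Both TH libraries were above all others, and the YH libraries were the lowest. The log2 fold change was 0.81 (SE 0.23, limma adjusted p = 0.188), and the adjusted p ranged from 0.0499 (without TH2) to 0.908 over the alternative settings.

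MRPS34 (ENSSSCG00000008016, chr3:41658025-41659263), a mitochondrion-specific protein that the small subunit needs for its stability, had the largest value among genes without overlap. Its FPKM was 49.9 and 27.97 for TH, 22.3 and 21.7 for TL, 19.4 and 19.8 for YH, and 20.8 and 29.3 for YL. TH1 was highest, and YL2 rather than TH2 came next. The log2 fold change was 0.90 (SE 0.31, limma adjusted p = 0.245), and 0.49 without TH1. MRPL20, a large subunit protein with a bacterial counterpart, had an FPKM of 108 and 49.6 for TH, 38.6 and 40.9 for TL, 38.5 and 40.8 for YH, and 40.2 and 36.4 for YL. TH1 was far above every other library, and its log2 fold change of 0.87 (SE 0.36, limma adjusted p = 0.298) was 0.32 without TH1. MRPL17, also of the large subunit, had 0.83 (SE 0.31, limma adjusted p = 0.265), and 0.43 without TH1.

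In the other direction, MRPL3 (ENSSSCG00000011179, chr13:763799-803373), a large subunit protein of the bacterial core, had an FPKM of 19.2 and 24.98 for TH, 35.7 and 33.3 for TL, 37.1 and 35.1 for YH, and 32.4 and 34.1 for YL. TH1 and TH2 were the lowest of the 8, and the other 6 lay between 32.4 and 37.1. The log2 fold change was -0.69 (SE 0.21, limma adjusted p = 0.203), and -0.51 without TH1. MRPS35 had -0.50 (SE 0.21, limma adjusted p = 0.303), MRPL49 -0.58 (SE 0.25, limma adjusted p = 0.318) and MRPS33 -0.32 (SE 0.28, limma adjusted p = 0.584). For these 3 as well both TH libraries were below both YH libraries.

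Between TL and YL, the breeds at low altitude, none of the 83 members was called by limma, where 0.00839% of all genes tested were (1 gene), and the lowest adjusted p was 0.336, of a tRNA row. The 13 mRNAs had a median log2 fold change of 0.04, with 8 positive, and of -0.04 with median-ratio scaling and -0.29 with scaling to the FPKM sum. For all 13, YL1 was above and YL2 below both TL libraries. Without YL2 all 13 were negative with a median of -0.76, and without YL1 all 13 were positive with a median of 0.89. The sign thus depended on which YL library was kept.

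The MRPL and MRPS genes had a median of 0.14 from TL to YL, with 45 of 61 positive, and of -0.19 with scaling to the FPKM sum. Groups did not overlap for 21 higher in TL (34.4%, against 23.8% of all genes) and 8 lower (13.1%, against 17.8%). There were 2 higher (3.28%, against 5.9%) and 0 lower by limma (against 3.04%) at an unadjusted p under 0.05. Without YL2 the median was 0.01 with 33 of 61 positive, and without YL1 it was 0.30.

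One of the 2 was MRPL33, which rests on 4 reads in all. The other was MRPL22, a large subunit protein at the peptide exit, with an FPKM of 9.49 and 9.32 for TH, 9.54 and 12.5 for TL, 6.74 and 9.94 for YH, and 7.43 and 6.00 for YL. TL2 was highest and YL2 lowest, with TL1 between the YH libraries. The log2 fold change was 0.64 (SE 0.25, limma adjusted p = 0.522). MRPS11 had 0.61 (SE 0.32, limma adjusted p = 0.644) and MRPL45, which lines the exit and holds the ribosome at the inner membrane, 0.49 (SE 0.26, limma adjusted p = 0.652). The genes with the lowest values without overlap were MRPL49 (-0.38), MRPL28 (-0.37), MRPL10 (-0.34) and MRPS35 (-0.27), with limma adjusted p of 0.713, 0.781, 0.717 and 0.748. For MRPL49, YL2 at 27.4 FPKM was the highest library of all, and without YL2 the value was -0.08. Without YL2 the values of MRPL10 and MRPS11 were -0.11 and 0.33. Without YL1 the values of MRPL28 and MRPS35 were -0.18 and -0.12. MRPS15, with overlap, had -0.34 (SE 0.35, limma adjusted p = 0.811), and the value was 0.02 without YL1 and -0.71 without YL2.

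The comparison of TH to TL asks what differs with altitude in Tibetan pigs. It shares the TH libraries with that of TH to YH, so the values of both move together with TH1. None of the 83 members was called by limma, where 0.0504% of all genes tested were (6 genes), and the lowest adjusted p was 0.197, of MRPL33. All 13 mRNAs were positive with a median of 0.49, and the median was 0.28 with scaling to nuclear reads and -0.15 with scaling to the FPKM sum. For 7 of the 13 both TH libraries were above both TL libraries (all genes: 24.0% higher and 24.5% lower). These were ATP8, CYTB, ND1, ND2, ND3, ND4L and ND5.

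ND3 had the largest value, 0.81 (SE 0.75, limma adjusted p = 0.735), which was 0.18 without TH1, and ND5 had 0.70 (SE 0.69, limma adjusted p = 0.751), 0.42 without TH1. CYTB had 0.49 (SE 0.69, limma adjusted p = 0.837) and 0.09 without TH1, with TH2 at 29954 FPKM just above TL2 at 29356 FPKM. COX1 had 0.14 (SE 0.78, limma adjusted p = 0.968) with overlap, and -0.23 without TH1. No mRNA reached an unadjusted p under 0.05. Without TH1, 7 of 13 were positive with a median of 0.08.

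Of the 61 MRPL and MRPS genes, 40 were positive from TH to TL with a median of 0.11, but of -0.09 with scaling to nuclear reads and -0.44 with scaling to the FPKM sum. Groups did not overlap for 16 higher in TH (26.2%, against 24.0% of all genes) and 12 lower (19.7%, against 24.5%). At an unadjusted p under 0.05, 4 were higher (6.56%, against 5.81% of all genes) and 2 lower (3.28%, against 5.53%). Without TH1 the median was -0.18 with 21 of 61 positive, and without TH2 it was 0.40. The 4 were MRPL17 with 0.91 (SE 0.31, limma adjusted p = 0.337), MRPL20 with 0.87 (SE 0.36, limma adjusted p = 0.427), MRPS34 with 0.74 (SE 0.31, limma adjusted p = 0.44) and MRPS14 with 0.59 (SE 0.23, limma adjusted p = 0.401). Without TH1 these values were 0.52, 0.31, 0.34 and 0.34.

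MRPL17 (ENSSSCG00000024693, chr9:3733327-3737898) had an FPKM of 45.3 and 25.9 for TH, 18.5 and 17.1 for TL, 15.96 and 22.3 for YH, and 17.7 and 16.9 for YL. TH1 was highest, TH2 next and YH2 after them. MRPS9, of the small subunit, came close with 0.71 (SE 0.30, limma adjusted p = 0.441), and 0.41 without TH1. The 2 lower were MRPL33 and MRPL3, the latter with -0.63 (SE 0.21, limma adjusted p = 0.332) and -0.45 without TH1. MRPL49 had -0.44 (SE 0.25, limma adjusted p = 0.555) and MRPL45 -0.43 (SE 0.26, limma adjusted p = 0.585), the latter -0.20 without TH1. MRPL45 had an FPKM of 35.8 and 49.5 for TH, 59.6 and 54.9 for TL, 45.1 and 59.8 for YH, and 44.96 and 36.1 for YL. TH1 was lowest, YL2 was almost as low, and YH2 was highest.

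From YH to YL, the altitudes in Yorkshire pigs, none of the 83 members was called by limma, and neither was any gene (0.0%). No member reached an unadjusted p under 0.05, where 4.39% of all genes were higher and 1.58% lower at that level, and the lowest adjusted p of a member was 0.784. The 13 mRNAs had a median of 0.05 with 8 positive and overlapping groups throughout, and a median of -0.01 with median-ratio scaling. Without YL2 all 13 were negative with a median of -0.76, and without YL1 the median was 0.83. The outlying value was that of ATP8, -1.15 (SE 1.19, limma adjusted p = 0.831), and it was 0.47 without YH2 and -0.30 without YL1.

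MRPL and MRPS genes had a median of 0.07 with 39 of 61 positive. Groups did not overlap for 8 higher in YH (13.1%, against 21.9% of all genes) and 6 lower (9.84%, against 14.4%). Without YL2 the median was -0.09 and without YL1 0.25. The largest positive values without overlap were those of MRPL19 (0.45), MRPL32 (0.37), MRPL45 (0.36) and MRPS30 (0.31). The most negative were those of MRPL10 (-0.49), a protein of the ribosomal stalk, MRPS18A (-0.46), MRPS34 (-0.32) and MRPL24 (-0.30). Without YL2, MRPL32 and MRPL45 had values of 0.20 and 0.20, and MRPL10 and MRPS34 of -0.26 and -0.09. Without YH2, MRPL45 and MRPS18A had 0.16 and -0.19, and without YL1 MRPL24 had -0.16. The limma adjusted p of the 8 genes lay between 0.784 and 0.819.

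**Figure D5:**
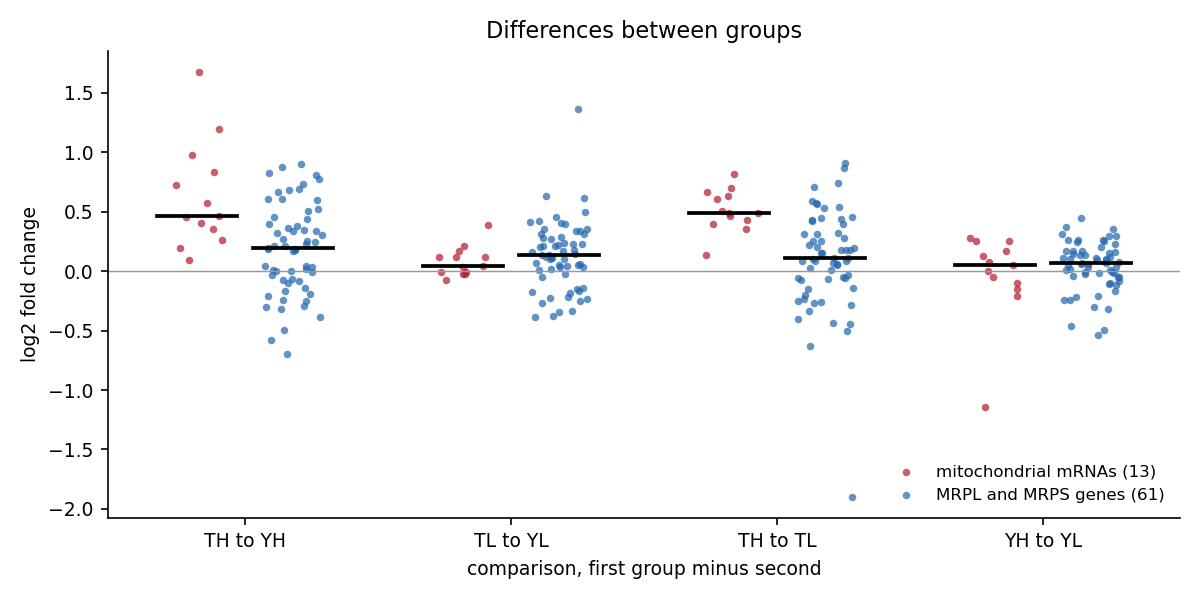
Log2 fold change (first group minus second) of the 13 mitochondrial mRNAs (red) and 61 tested MRPL and MRPS genes (blue) in each comparison, with black bars at medians. The mRNA medians are 0.46 and 0.49 in the comparisons that use the TH libraries as first group and 0.04 and 0.05 in the others on the FPKM scale. With scaling to the FPKM sum those of TH to YH, TH to TL and TL to YL turn to -0.53, -0.15 and -0.29, and with median-ratio scaling that of YH to YL turns to -0.01.

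Whether the difference with altitude differs between the breeds was tested as an interaction, (TH - TL) - (YH - YL). None of the 83 members was called by limma (0.0336% of all genes were), and the lowest adjusted p was 0.324, of a tRNA row. Of the 61 MRPL and MRPS genes, 3 had an unadjusted p under 0.05, MRPS34, MRPL3 and MRPL33, where 10.9% of all genes did, and none of the mRNAs had. For 5 of the 61 (8.2%, against 11.3% of all genes) the libraries of the altitudes were separate in both breeds and in opposite order. MRPS14, MRPS18A and MRPS34 were higher in TH than TL and lower in YH than YL, while MRPL3 and MRPL45 were lower in TH than TL and higher in YH than YL. The interaction was 1.06 (SE 0.44, limma adjusted p = 0.452) for MRPS34 and -0.74 (SE 0.30, limma adjusted p = 0.437) for MRPL3. Without TH1 these values were 0.66 and -0.56, and without TH2 they were 1.47 and -0.92. The adjusted p of the other 3 lay between 0.473 and 0.496.

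Nuclear genes that act on mitochondrial RNA were looked at as 5 lists, and none of their genes was called by limma in any comparison. Genes named only for an unadjusted p under 0.05 were picked after their values were seen. In the list of mitochondrial DNA maintenance and transcription, 10 genes were tested, with a median of -0.20 from TH to YH and -0.06 from TH to TL, or of -0.09 and -0.01 without TH1. Those with an unadjusted p under 0.05 were SSBP1 and MTERFD1 from TH to TL, in opposite directions, and MTERF from TL to YL. TFAM, which packages mitochondrial DNA and starts its transcription, had an FPKM of 11.3 and 20.04 for TH, 15.7 and 21.9 for TL, 20.5 and 16.9 for YH, and 16.7 and 28.4 for YL. YL2 was highest and TH1 lowest, whereas in FPKM YL2 was lowest and TH1 highest for most mitochondrial mRNAs. With scaling to nuclear reads TH1 was highest for 5 of the 13 mRNAs. The log2 fold change of TFAM was -0.29 (SE 0.37, limma adjusted p = 0.72) from TH to YH, 0.10 without TH1 and -0.15 without YH1. SSBP1, the protein that binds single-stranded mitochondrial DNA, had 0.93 (SE 0.34, limma adjusted p = 0.361) from TH to TL, and 0.50 without TH1.

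Of 21 genes for the processing, stability and decay of mitochondrial RNA, 3 were lower from TH to YH at an unadjusted p under 0.05 (PTCD2, LRPPRC and FASTKD1) and 2 from TH to TL (PTCD2 and FASTKD1), with none higher. These are 14.3% and 9.52% of the list, against 8.47% and 5.53% of all genes. LRPPRC and SLIRP form a complex that stabilises mitochondrial mRNAs. LRPPRC had an FPKM of 8.78 and 15.4 for TH, 17.7 and 17.9 for TL, 20.3 and 20.1 for YH, and 15.2 and 14.4 for YL. It was lowest in TH1 and highest in the YH libraries, with -0.74 (SE 0.27, limma adjusted p = 0.26), and -0.37 without TH1. SLIRP had an FPKM of 759 and 376 for TH, 344 and 349.5 for TL, 314 and 286 for YH, and 400.4 and 259 for YL. It was highest in TH1, with 0.83 (SE 0.39, limma adjusted p = 0.357), and 0.33 without TH1. PTCD2 had -1.21 (SE 0.26, limma adjusted p = 0.127). GRSF1, of the granules where mitochondrial RNA is processed, ranged from 26.7 FPKM in YL2 to 48.2 FPKM in YL1.

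Among 13 translation factors, 4 were lower from TH to YH at an unadjusted p under 0.05 (GFM1, MTFMT, TSFM and OXA1L) and 2 from TH to TL (OXA1L and TSFM), with none higher. These are 30.8% and 15.4% of the list, against 8.47% and 5.53% of all genes. The medians of the list were -0.30 and -0.32. OXA1L, which inserts the newly made proteins into the inner membrane, had an FPKM of 57.6 and 56.6 for TH, 82.6 and 98.4 for TL, 82.5 and 84.9 for YH, and 88.9 and 69.7 for YL. Both TH libraries were below all others. Its log2 fold changes were -0.54 (SE 0.22, limma adjusted p = 0.301) and -0.65 (SE 0.22, limma adjusted p = 0.347). GFM1, which moves the ribosome along the mRNA, had -0.62 (SE 0.19, limma adjusted p = 0.216) from TH to YH. TUFM, the elongation factor that brings tRNAs to the ribosome, was highest in TH1 at 120 FPKM and lay between 70.6 and 83.5 in the rest.

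Of 13 mitochondrial aminoacyl-tRNA synthetase rows, 3 were lower from TH to YH at that level (NARS2, HARS2 and 1 of 2 rows of IARS2) and 2 from TH to TL (NARS2 and the same IARS2 row), with none higher, which is 23.1% and 15.4% of the list against the same shares of all genes. The other IARS2 row, of higher level, overlapped between these groups, with an FPKM of 39.9 and 27.7 for TH and 32.3 and 28.9 for YH. NARS2 had -0.999 (SE 0.22, limma adjusted p = 0.134) from TH to YH. Ribosome proteins without an MRPL or MRPS symbol and assembly factors gave 15 genes tested, with medians of -0.07 from TH to YH and 0.00 from TH to TL, or of -0.25 and -0.14 without TH1 and 0.29 and 0.24 without TH2. At an unadjusted p under 0.05 were GADD45GIP1 (higher) and DDX28 (lower) from TH to YH, DDX28 (lower) from TH to TL, and DAP3 (higher) and MPV17L2 (lower) from TL to YL. GADD45GIP1, a large subunit protein, had an FPKM of 68.99 and 30.4 for TH, 29.2 and 28.7 for TL, 26.3 and 22.9 for YH, and 28.4 and 26.2 for YL. TH1 was far above the rest, as for many MRPL and MRPS genes, and its log2 fold change from TH to YH was 0.88 (SE 0.37, limma adjusted p = 0.307), and 0.30 without TH1. DAP3, a small subunit protein, had 0.59 (SE 0.21, limma adjusted p = 0.454) from TL to YL at levels from 1.02 FPKM in YL2 to 2.32 FPKM in TL2. PTCD3, a small subunit protein, ranged from 16.3 FPKM in YL2 to 25.4 FPKM in YL1 and CHCHD1 from 17.1 FPKM in YL2 to 30.1 FPKM in TH1.

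Set against other gene groups, the MRPL and MRPS genes had smaller medians than the cytosolic ribosome in the comparisons with TH. From TH to YH the median of 80 cytosolic ribosome genes was 0.80 with 78 positive and 69 higher in TH without overlap (25.2% of all genes were), and from TH to TL it was 0.73, of which the first is smaller than the shift of -0.99 that scaling to the FPKM sum adds. Without TH1 the medians were 0.42 and 0.35, and without TH2 they were 1.19 and 1.16. With all libraries, those of the MRPL and MRPS genes were 0.20 and 0.11. The 75 nuclear oxidative phosphorylation genes had medians of 0.16 from TH to YH, 0.29 from TL to YL, -0.01 from TH to TL and 0.14 from YH to YL, and the sign of each depended on 1 library. Without TH1 the medians were -0.23 from TH to YH and -0.38 from TH to TL, and without TH2 they were 0.55 and 0.37. Without YL2 they were -0.16 from TL to YL and -0.33 from YH to YL, and without YL1 they were 0.75 and 0.61. None of the cytosolic ribosome or oxidative phosphorylation genes was called by limma either. At an unadjusted p under 0.05 from TH to YH 32 cytosolic ribosome genes were higher (40.0%) and 0 lower, and 1 oxidative phosphorylation gene was higher (1.33%) and 6 lower (8.0%), where 7.71% of all genes were higher and 8.47% lower. No test of the lists against each other was made.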

How the data were processed

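RNA from 8 pools of pig heart was sequenced as paired reads of 100 bases. Per the labels and the methods of the study, the authors mapped reads with TopHat2 version 2.0.9 to Sscrofa10.2 and computed FPKM with Cufflinks. The submitters' processing notes also list Bowtie 0.12.5 and DESeq 1.10.1. The kit, any selection of RNA and the use of strand are not given in the sources used here. The table deposited by the authors also holds a column per library headed as counts, whose values are a scaled signal, the reads divided by 1 factor per library. Dividing by the smallest step gave whole reads within 0.02 for 99.7% to 99.9% of low values. These reads were used for shares and depth, not for a test. The 8 columns of the authors' group means and ratios were not used.

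Log2(FPKM + 1) was fitted with limma 3.58.1 (R 4.3.3) over all 8 libraries, with trend and 1 mean per group, and p-values were Benjamini-Hochberg adjusted over 11913 genes. The 4 comparisons and the interaction are contrasts of that fit. Gene names come from the table and from RefSeq tables for pig. Unnamed rows on MT were taken as rRNA or tRNA by their interval, which matched a RefSeq interval exactly for 16 of 27 rows. Genes named are all mRNAs and rRNAs of MT, the 4 largest changes in each direction without overlap in each comparison, and the highest and lowest by level, with a few others said to be chosen after their values were seen. Values of 1000000 or more are given to 3 digits. Scaling, filter, pseudocount, trend, libraries in the fit and a replicate block were varied. The members and gene lists were chosen with earlier results of these data known. Tables and figures were made with Python 3.11.15, pandas 2.3.3, numpy 2.4.6 and matplotlib 3.10.9, and the fit was tested on simulated data.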

Additional observations from a re-analysis of the deposited data

How the results depend on the processing

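Among the counts and medians recomputed under each alternative, 272 values stayed near the reported value and 38 moved. Scaling to the FPKM sum gave 5 members called from TH to YH, 4 from TL to YL, 3 from TH to TL, 3 from YH to YL and 4 for the interaction, all of them tRNA rows. It also gave a median of -0.53 for the mRNAs from TH to YH, and medians of -0.69, -0.19 and -0.44 for the MRPL and MRPS genes from TH to YH, TL to YL and TH to TL. Fitting only the 4 libraries compared gave 1 call from TL to YL and 1 from TH to TL, again a tRNA row. Leaving out each library in turn gave 0 to 1 members called in every comparison. The same step gave MRPL and MRPS medians of -0.059 to 0.47 from TH to YH and -0.18 to 0.40 from TH to TL, and mRNA medians of -0.76 to 0.89 from TL to YL and -0.76 to 0.83 from YH to YL. The level of the mRNAs relative to the MRPL and MRPS genes then ranged from -0.83 to 0.52 from TL to YL and from -0.79 to 0.56 from YH to YL. Leaving out YL2 and TH1 together, chosen after seeing the data, gave MRPL and MRPS medians of -0.059 and -0.18 from TH to YH and TH to TL, mRNA medians of -0.76 from TL to YL and -0.76 from YH to YL, and relative levels of -0.83 and -0.79.

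A fit with a replicate block called 0 members in each comparison by limma and left the medians at 0.46 for the mRNAs and 0.20 for the MRPL and MRPS genes from TH to YH. Over all genes tested, deviations of same-numbered libraries had correlations of -0.08 to 0.12, so the samples were not taken as paired. For the 13 mRNAs library 1 was nonetheless above library 2 for 13 of 13 in TH, YH and YL, and for 5 of 13 in TL. The count-based tests that were planned were not run, since the counts are scaled and a few recovered values were fractions of a read. Depth limits the tRNA rows, MRPL33 and MRPL51, which rest on few reads.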
